A study of Homo sapiens with 6 samples.

Results

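The genes examined here encode the chains of integrins and laminins. They were the protein-coding rows of the deposited gene table whose symbol starts with ITGA, or with ITGB, LAMA, LAMB or LAMC followed by a digit, without the binding-protein genes ITGB1BP1, ITGB1BP2 and ITGB3BP. The rule gave 38 of 58735 rows, of which 19951 are protein coding, and 37 of them are described here, 26 integrin and 11 laminin chain genes. The rule itself uses names only, but it was set with earlier results of these data known.

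RNA-seq was carried out on MDA-MB-231, an established human triple-negative breast cancer line, labelled wild type in every sample. Both groups were stained with PKH26, a fluorescent dye that sits in the cell membrane and is diluted as cells divide, then grown for 12 days and sorted. Slow-cycling cells (SCC, 3 libraries) were the brightest 1%, and rapid-cycling cells (RCC, 3 libraries) were those of moderate brightness, whereas the characteristics field labels RCC as PKH26lo. The groups are therefore defined by dye content within 1 cell line, and the series asks how gene expression differs between them. The 3 libraries of a group are given as biological replicates without saying whether they came from separate cultures, so p-values measure the spread between these libraries.

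Integrins are receptors made of an alpha and a beta chain that bind the extracellular matrix outside the cell and link it to the cytoskeleton inside. Laminins are cross-shaped trimers of an alpha, a beta and a gamma chain and form the base of epithelial basement membranes. The alpha3 and alpha6 integrins are the main laminin receptors of epithelial and breast cancer cells. Paired with alpha6, the beta4 chain anchors hemidesmosomes on laminin-332, a trimer that holds the products of LAMA3 and LAMB3. Integrin contact with the matrix is widely studied in tumor cell dormancy.

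Library totals ran from 17655855 to 27831824 counts. Markers were checked against the label of a mesenchymal triple-negative line: VIM had 13443 to 20451 counts per library, whereas ESR1 had 5 to 16, PGR 0 to 3 and CDH1 0 to 10. Not every marker followed that label: the luminal keratins KRT8 (5988 to 11447 counts), KRT18 (3552 to 6023) and KRT19 (1585 to 3293) and the receptor gene ERBB2 (1314 to 2868) were well covered, and the mesenchymal cadherin CDH2 had 2 to 13. Of the 11 luminal markers 8 had enough counts to be tested, and of the 10 mesenchymal ones 9. SCC replicate 1 stood apart from the other SCC libraries in a way that followed the GC content of transcripts. Its log2 CPM minus the mean of SCC replicates 2 and 3 had a median of -0.25 in the tenth of tested genes with the lowest GC content and 0.43 in the tenth with the highest. Results are therefore given with and without that library where it bears on them. In bulk RNA, fewer cells of a type and less RNA per cell cannot be told apart.

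Of the 37 genes, 24 had enough counts to be tested and 13 did not. ITGB4, which encodes the beta4 chain of the hemidesmosome receptor, rose in SCC, and none of the 24 was called lower. Calls here used the quasi-likelihood F test of edgeR with Benjamini-Hochberg adjustment over all 15881 tested genes, at an adjusted p under 0.05. By this rule 1 of the 24 genes was higher in SCC against 1.69% of all tested genes, and 0 were lower against 0.378%. At an unadjusted p under 0.05, 7 were higher and 1 lower, against 11.4% and 8.27% of all tested genes. The CPM values of the groups did not overlap for 10 genes higher and 3 lower in SCC (ITGA2, ITGAE and LAMB1), against 14.4% and 13.4%. The median log2 fold change of the 24 was 0.22, against 0.003 over all tested genes, and 0.17 without SCC replicate 1. DESeq2 called 5 of them higher, adding ITGA3, LAMA5, LAMB2 and ITGB2, and 0 lower, against 3.02% of all genes called higher by that tool.

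**Figure D1:**
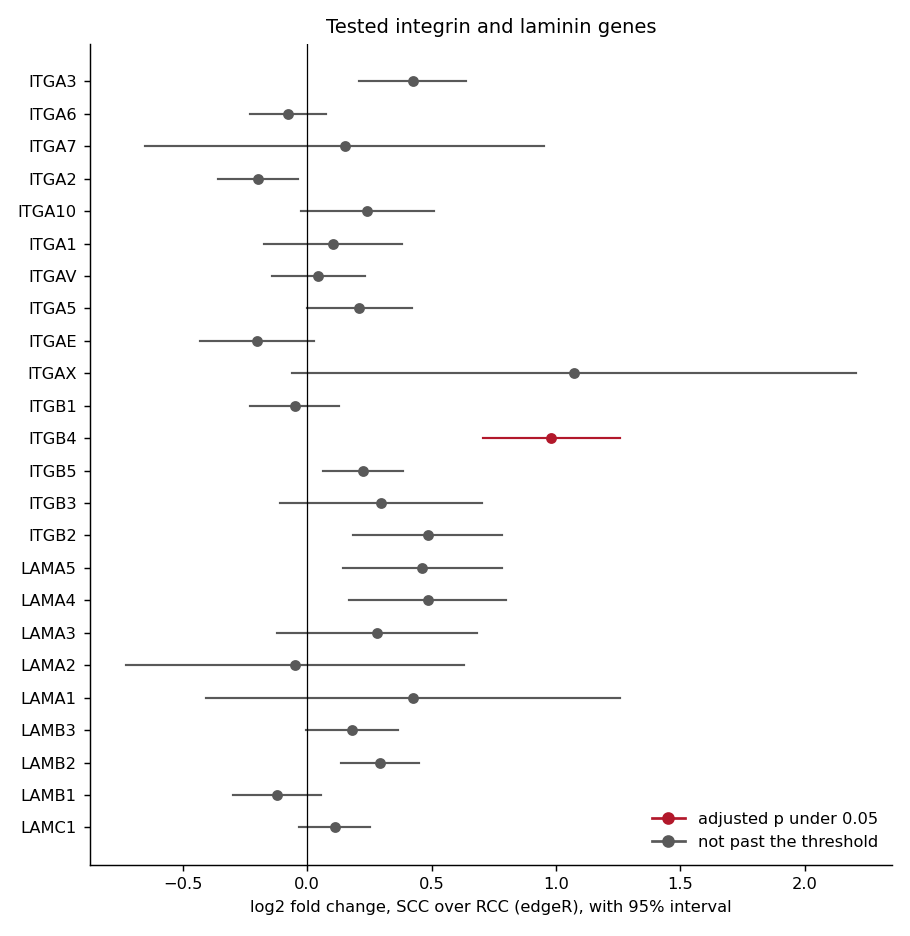
Log2 fold change of SCC over RCC (horizontal axis) for the 24 tested integrin and laminin genes described, with the 95% interval of edgeR's fit. ITGB4, in red, passed an adjusted p of 0.05, and the intervals of ITGB1 and ITGA6 span 0.

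The overall integrin and laminin make-up of these cells was set by a few chains. On the FPKM scale, which divides each count by the gene's deposited length and by library depth, the mean over the 6 libraries was highest for ITGB1 at 118, LAMB3 at 113 and ITGA3 at 90.4. LAMB2 followed at 50.5, LAMA5 at 48.6 and LAMC1 at 33.3. FPKM uses 1 length per gene whichever transcript a cell makes, so a gene read from a short transcript would come out low. Within their own kind, ITGB1 took 76.7% ± 1.0 (SD, n = 3) of the summed integrin beta FPKM in RCC, and LAMA5 took 97.7% ± 0.30 of laminin alpha. Among the 13 untested genes the highest FPKM in any library was 0.211, for ITGA2B in SCC replicate 2.

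**Figure D2:**
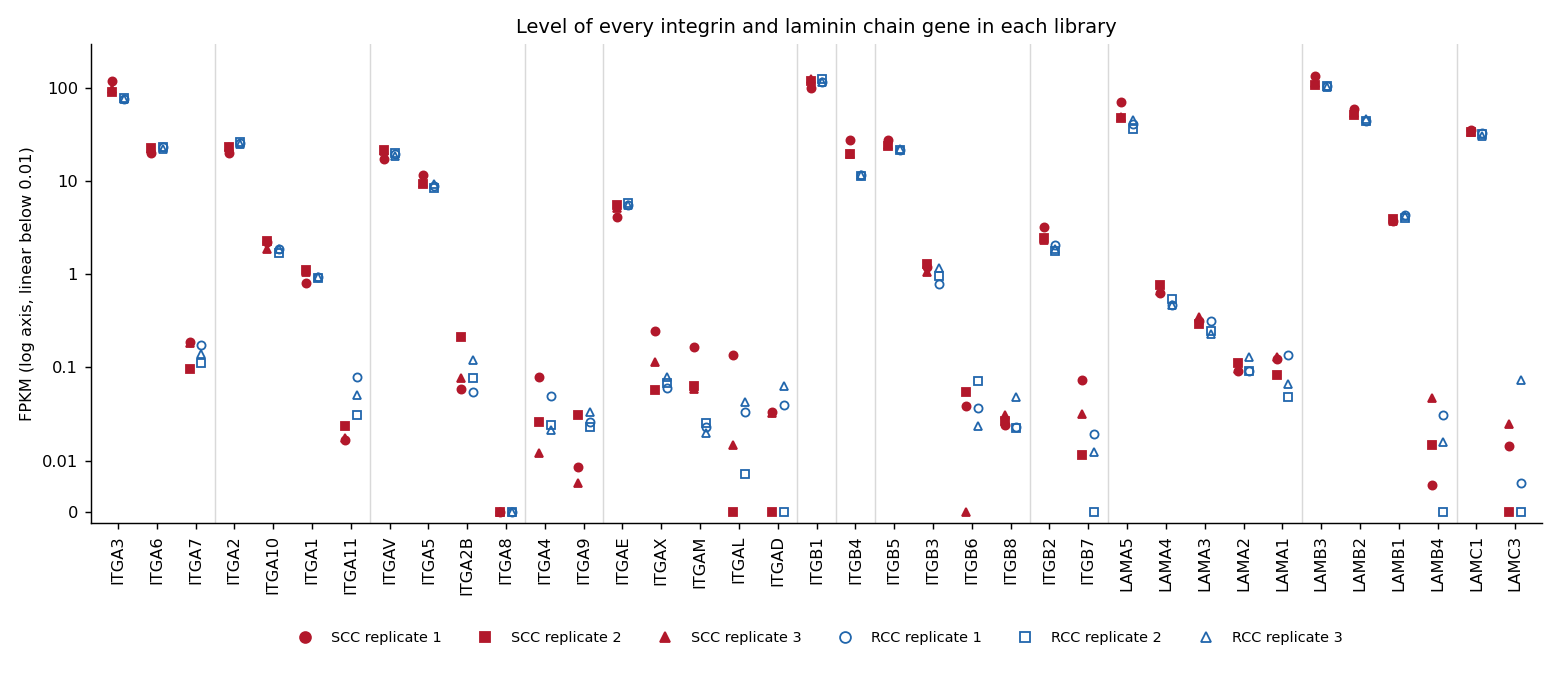
FPKM of the 37 genes described (vertical axis, logarithmic above 0.01 and linear below) in each library, with SCC filled red and RCC open blue and the marker shape giving the replicate. Grey lines separate roles, and a handful of chains such as ITGB1, LAMB3 and ITGA3 lie far above the rest.

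ITGB4 was the integrin gene with the clearest difference. It lies on chromosome 17 from 75721328 to 75757818 (GRCh38, ENSG00000132470) and shares no exonic bases with another annotated gene. Its CPM, the count scaled to the library's TMM-adjusted total, was 193, 135 and 135 in SCC replicates 1 to 3 and 79.2, 76.6 and 79.2 in RCC. Every SCC library was above every RCC library, with SCC replicate 1 well above the other SCC libraries. Mean CPM was 154 ± 33.6 (SD, n = 3) in SCC and 78.3 ± 1.52 in RCC. SCC exceeded RCC 1.97-fold, a log2 fold change of 0.98 ± 0.13 (standard error, 95% interval 0.71 to 1.26), at an edgeR adjusted p of 0.00174. Without SCC replicate 1 it was 0.79 at an adjusted p of 1.59e-11, and it stayed past the threshold with any of the 6 libraries left out. Its transcripts have a GC content of 62.9%, and with an offset for GC content the log2 fold change was 0.74.

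No other chain of the laminin-binding integrins passed the threshold. ITGA6, on chromosome 2 from 172427354 to 172506282, encodes the alpha6 chain that is the only known partner of beta4. Its CPM was 134, 151 and 145 in SCC and 154, 153 and 146 in RCC, and the groups overlapped. ITGA6 had a log2 fold change of -0.08 (95% interval -0.23 to 0.07, edgeR adjusted p = 0.538), so a rise of the size seen for ITGB4 lies outside its interval. Within each library the FPKM of ITGB4 was 1.40, 0.867 and 0.899 times that of ITGA6 in SCC and 0.497, 0.485 and 0.523 times in RCC. The mean ratio was 1.05 ± 0.30 (SD, n = 3) in SCC and 0.502 ± 0.020 in RCC. The SCC mean was raised by SCC replicate 1. In SCC replicates 2 and 3 ITGB4 stood somewhat under the ITGA6 level, and in RCC well under it.

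ITGB1, the shared beta chain that pairs with most alpha chains expressed here, lies on chromosome 10 from 32900319 to 33005792. Its CPM was 612, 733 and 752 in SCC and 714, 753 and 705 in RCC. SCC replicate 1 was the lowest of the 6 libraries and the others intermixed. ITGB1 had a log2 fold change of -0.05 (95% interval -0.23 to 0.13, edgeR adjusted p = 0.75), and it turned to 0.05 with the GC offset. The ratio of ITGB4 to ITGB1 FPKM was 0.281, 0.164 and 0.159 in SCC against 0.0986, 0.0904 and 0.0999 in RCC. As a share of summed integrin beta FPKM, ITGB4 took 13.6% ± 3.4 (SD, n = 3) in SCC and 7.38% ± 0.30 in RCC, and ITGB1 took 68.8% ± 5.5 and 76.7% ± 1.0. The ITGB4 share was 17.5%, 11.8% and 11.5% in SCC replicates 1 to 3.

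**Figure D3:**
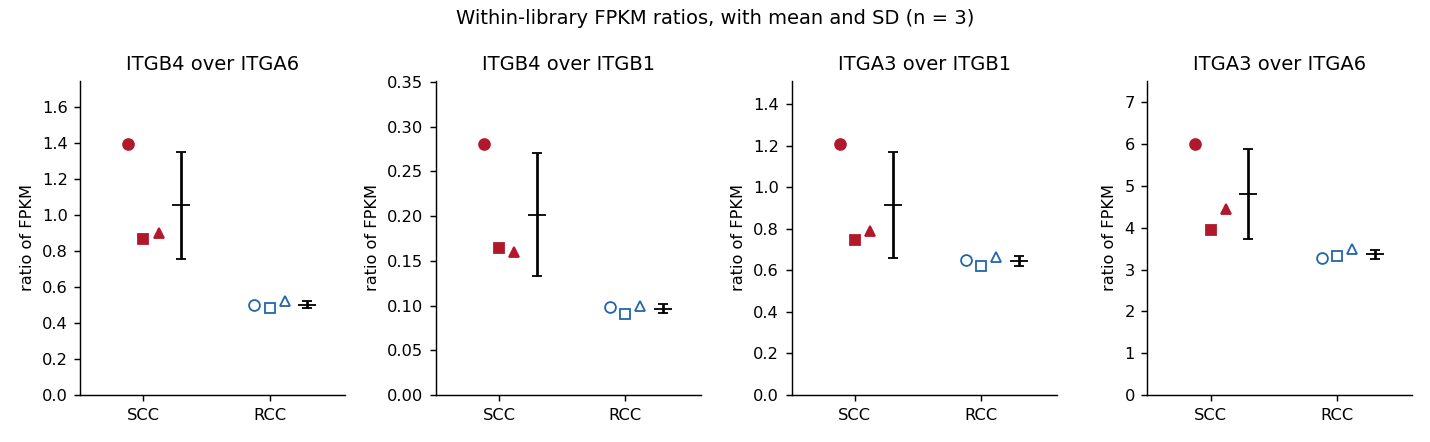
Ratios of FPKM between pairs of chains within each library (vertical axes, from 0), as points for the 3 libraries of each group with the mean and SD beside them. ITGB4 over ITGA6, ITGB4 over ITGB1, ITGA3 over ITGB1 and ITGA3 over ITGA6 were higher in all 3 SCC libraries than in RCC, with SCC replicate 1 the highest in each. In each pair shown the first chain has the higher GC content. LAMB3 over LAMA3 and LAMA5 over LAMC1, not shown, overlapped between groups.

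Among the alpha chains that bind laminin, ITGA3 was the most abundant. It encodes the alpha3 chain, which pairs with beta1 to bind laminin-332 and laminin-511, and lies on chromosome 17 from 50055968 to 50090481. Its CPM was 1206, 891 and 966 in SCC and 757, 761 and 766 in RCC. All 3 SCC libraries were above RCC, whose libraries lay close together. Its log2 fold change of 0.42 ± 0.10 (standard error) missed the threshold at an edgeR adjusted p of 0.0531. Without SCC replicate 1 the log2 fold change was 0.29 at an adjusted p of 0.000105, and without SCC replicate 2 it was 0.50 at 0.00938. Leaving out either library thus brought ITGA3 past the threshold. Without SCC replicate 3 or RCC replicate 1, 2 or 3, ITGA3 was not called (adjusted p up to 0.209). Its FPKM was 1.21, 0.745 and 0.787 times that of ITGB1 in SCC and 0.651, 0.620 and 0.666 times in RCC. ITGA7, the laminin receptor chain of muscle, was at 0.614 to 1.22 CPM in all libraries (log2 fold change 0.15, edgeR adjusted p = 0.838), and its direction turned with the GC offset (-0.02).

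The collagen-binding alpha chains showed no call. ITGA2, which with beta1 forms a collagen and laminin receptor of epithelia, was the most abundant of them and lies on chromosome 5 from 52989326 to 53094779. Its CPM was 162, 188 and 187 in SCC and 206, 207 and 202 in RCC. It was the only one of the 24 genes with an unadjusted p under 0.05 in the lower direction, with SCC below RCC in every library. On the log2 scale the difference was -0.20 (95% interval -0.36 to -0.04, edgeR adjusted p = 0.183). It was -0.25 to -0.13 with single libraries left out, and SCC replicate 1 was the lowest library. ITGA10 (log2 fold change 0.24, edgeR adjusted p = 0.29) and ITGA1 (0.10, 0.659) overlapped between groups, and ITGA11 had 4 to 20 counts per library and was not tested. ITGA1 shares exonic bases with PELO on the same strand, so its counts are uncertain.

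Among the chains that bind the RGD sequence of fibronectin, vitronectin and related proteins, no gene passed the threshold. ITGAV, the alpha-v chain, was the most abundant alpha chain of this role, on chromosome 2 from 186590065 to 186680901. It was at 144, 178 and 173 CPM in SCC and 162, 164 and 154 in RCC, with SCC replicate 1 the lowest of the 6 libraries. Its log2 fold change was 0.04 (edgeR adjusted p = 0.795) and ranged from -0.03 to 0.14 as single libraries were left out. With the GC offset it was 0.17 and called (edgeR adjusted p = 0.0377). ITGA5, the fibronectin receptor alpha chain, was at 90.02, 72.3 and 72.6 CPM in SCC and 67.5, 64.0 and 71.9 in RCC. The groups did not overlap, but their nearest libraries were close, and the log2 fold change was 0.21 (edgeR adjusted p = 0.257), or 0.098 without SCC replicate 1. The GC offset gave 0.104. ITGA2B, the platelet chain, had 7 to 23 counts per library and was not tested, and ITGA8 was the single gene of the 37 with 0 counts in all 6 libraries, which allows up to 0.111 to 0.168 CPM per library at 3 counts.

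The alpha-v partner beta chains were led by ITGB5, a vitronectin receptor chain on chromosome 3 from 124761948 to 124901418. Its CPM was 181, 156 and 160 in SCC and 143, 139 and 144 in RCC. The SCC libraries lay above RCC, with a log2 fold change of 0.22 (95% interval 0.06 to 0.38) that did not pass the threshold (edgeR adjusted p = 0.143). ITGB3 was lower in level at a mean FPKM of 1.08 and overlapped between groups (log2 fold change 0.30, edgeR adjusted p = 0.384). Its exons overlap those of AC068234.1 on the same strand over 51.6% of their length, so its counts are uncertain. ITGB6 and ITGB8, chains of receptors that activate latent TGF-beta, had 0 to 7 and 7 to 13 counts per library and were not tested.

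The leukocyte-type integrins were at low levels. ITGB2, the beta2 chain shared by leukocyte integrins, lies on chromosome 21 from 44885953 to 44931989 and was at 22.1, 16.7 and 16.1 CPM in SCC and 14.1, 12.2 and 12.98 in RCC. All SCC libraries were above RCC, with SCC replicate 1 the highest. ITGB2 had a log2 fold change of 0.48 ± 0.14 (standard error) and an edgeR adjusted p of 0.0976, and DESeq2 called it. With single libraries left out its log2 fold change was 0.32 to 0.56, and edgeR did not call it. ITGAX, the alpha-X chain of myeloid cells, had 48, 8 and 17 counts in SCC and 10, 10 and 10 in RCC, and its log2 fold change of 1.07 (95% interval -0.06 to 2.21, edgeR adjusted p = 0.273) was 0.32 without SCC replicate 1. ITGAE, the alpha-E chain that binds E-cadherin, was the most abundant leukocyte-type alpha chain at 28, 36.9 and 34.2 CPM in SCC and 37.6, 38.7 and 37.4 in RCC. SCC was below RCC in every library, and SCC replicate 1 was the lowest. The log2 fold change was -0.20 (edgeR adjusted p = 0.299), and -0.30 to -0.09 with single libraries left out. In ITGAE, 6.41% of the exonic bases overlap HASPIN on the opposite strand.

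SCC replicate 1, the deepest library, also held the most counts of ITGAL (24, against 0 to 5 in the other libraries), ITGAM (26, against 2 to 7) and ITGB7 (9, against 0 to 3), which were not tested. ITGB7 shares 42.1% of its exonic bases with ZNF740 on the opposite strand. ITGAD, ITGA4 and ITGA9, the last 2 being receptors for VCAM1 and fibronectin variants, had 0 to 17 counts per library and were not tested either. Leukocyte markers moved with the same library: PTPRC, which encodes CD45, had 53 counts there and 3 to 15 elsewhere, LYZ had 13 against 0 or 1, and SPI1 had 10 against 0 or 1. The summed FPKM of all 20 leukocyte markers was 3.78 to 6.26 in SCC and 4.17 to 4.96 in RCC, and none of the 5 tested ones passed the threshold. Their part in the leukocyte integrin values was not tested.

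**Figure D4:**
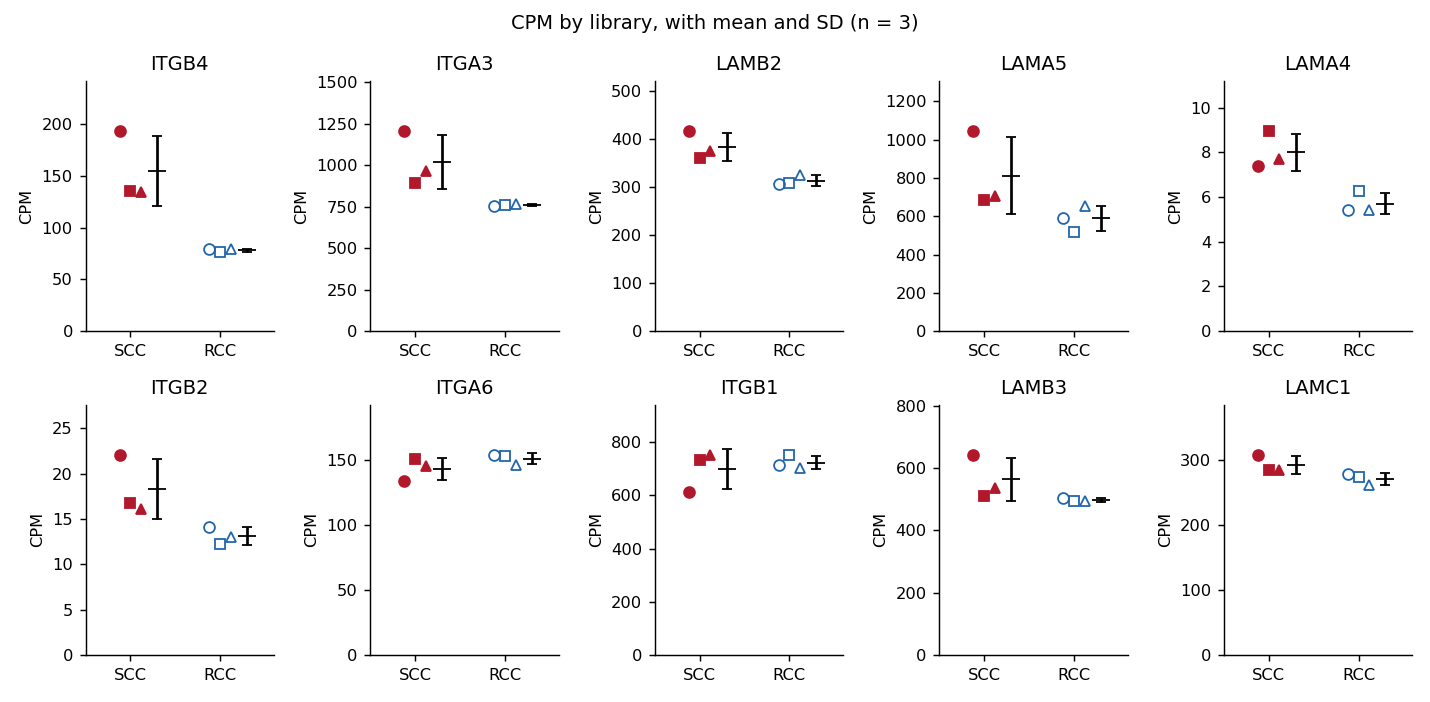
CPM per library (vertical axes, from 0) of 10 integrin and laminin genes, with circles, squares and triangles for replicates 1, 2 and 3 and the mean and SD of each group beside them. The SCC libraries of ITGB4 lie clear of RCC, whereas those of ITGA6 and ITGB1 intermix with RCC. SCC replicate 1 is the highest library for ITGB4, ITGA3, LAMB2, LAMA5, ITGB2, LAMB3 and LAMC1.

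Among the laminins, LAMC1, the gamma1 chain of most trimers, lies on chromosome 1 from 183023460 to 183145592. Its CPM was 308, 285 and 284 in SCC and 278, 273 and 261 in RCC. SCC was above RCC in every library, but by little, with a log2 fold change of 0.11 (95% interval -0.03 to 0.25, edgeR adjusted p = 0.354). LAMC3, another gamma chain, had 0 to 10 counts per library and was not tested.

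LAMB3 and LAMA3, chains of laminin-332, were not called. LAMB3, the beta3 chain, lies on chromosome 1 from 209614870 to 209652466 and was at 643, 511 and 538 CPM in SCC and 504, 494 and 493 in RCC. SCC replicate 1 was far above and the remaining SCC libraries only just above RCC, giving a log2 fold change of 0.18 (95% interval -0.004 to 0.37, edgeR adjusted p = 0.262). Leaving out SCC replicate 1 gave 0.077, and the GC offset gave 0.02. LAMA3, the alpha3 chain, lies on chromosome 18 from 23689443 to 23956222 and was at 4.75, 4.29 and 5.17 CPM in SCC and 4.70, 3.58 and 3.36 in RCC. The groups overlapped, at a log2 fold change of 0.28 (95% interval -0.12 to 0.68, edgeR adjusted p = 0.401).

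LAMB3 and LAMA3 differed greatly in level. Their mean FPKM over all libraries was 113 and 0.292. LAMB3 exceeded LAMA3 374 ± 49.2 times in SCC and 409 ± 64.8 times in RCC (SD, n = 3), with overlapping groups. LAMA3 has long and short transcripts, which 1 length per gene cannot separate.

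LAMA5 and LAMB2 are chains of laminin-511 and laminin-521 type trimers, the broad epithelial and vascular laminins. LAMA5, on chromosome 20 from 62307955 to 62367312, was at 1044, 684 and 705 CPM in SCC and 592, 520 and 653 in RCC. All SCC libraries were above RCC, SCC replicate 1 by the widest margin. LAMA5 had a log2 fold change of 0.46 ± 0.15 (standard error) at an edgeR adjusted p of 0.131. It was 0.24 at an adjusted p of 0.0141 without SCC replicate 1, and 0.56 at 0.0386 without SCC replicate 2, so that leaving out either library brought it past the threshold. Without SCC replicate 3 or RCC replicate 1, 2 or 3, LAMA5 was not called (adjusted p up to 0.376). Its GC content of 65.3% is the highest of the tested chains, and the GC offset lowered the log2 fold change to 0.17 (edgeR adjusted p = 0.1).

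LAMB2, on chromosome 3 from 49121114 to 49133118, was at 417, 360 and 374 CPM in SCC and 306, 309 and 326 in RCC. The groups did not overlap. LAMB2 had a log2 fold change of 0.29 ± 0.07 (standard error) at an edgeR adjusted p of 0.0672. It was past the threshold without SCC replicate 1 (0.23, adjusted p = 0.00197) and without SCC replicate 2 (0.32, adjusted p = 0.0361). Without SCC replicate 3 or RCC replicate 1, 2 or 3, LAMB2 was not called (adjusted p up to 0.277). LAMA4, the alpha4 chain of mesenchymal and endothelial laminins, was at 7.38, 8.95 and 7.68 CPM in SCC and 5.43, 6.26 and 5.43 in RCC. Its SCC libraries were above RCC without SCC replicate 1 being the highest. The log2 fold change was 0.48 (edgeR adjusted p = 0.112), or 0.54 at an adjusted p of 0.0372 without SCC replicate 1. LAMA4 was called with no other library left out (adjusted p up to 0.34). LAMA5, LAMB2, LAMA4 and ITGA3 made up the difference between the 1 gene called and the 5 called without SCC replicate 1, where 3.93% of all tested genes were called higher, and LAMA5, LAMB2 and ITGA3 that between 1 and the 4 called without SCC replicate 2, where 3.57% were.

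LAMB1, LAMA1 and LAMA2 did not pass the threshold either. LAMB1, the beta1 chain, was at 30.9 to 32.2 CPM in SCC and, in every library above these, 32.5 to 35.5 in RCC (log2 fold change -0.12, edgeR adjusted p = 0.414). LAMA1 (0.43, adjusted p = 0.54) and LAMA2 (-0.05, adjusted p = 0.944), chains of early embryonic and of muscle laminin, had 16 to 54 and 20 to 26 counts per library, and LAMA2 changed direction as single libraries were left out. LAMB4 had 0 to 7 counts per library and was not tested.

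Differences among the 24 genes followed the GC content of their transcripts, as did those over all tested genes. Of the 12 genes at or above their median GC content of 50.9%, 12 had a positive log2 fold change, with a median of 0.29. Of the 12 below it, 6 did, with a median of -0.002. Over all tested genes the median log2 fold change was -0.15 in the tenth with the lowest GC content and 0.259 in the tenth with the highest. Without SCC replicate 1 these medians were -0.068 and 0.095. Across the 24 genes, which share the same 6 libraries and are not independent, Pearson's r of log2 fold change with GC content was 0.60 and Spearman's rho 0.62. Without SCC replicate 1 they were 0.38 and 0.38, and with the GC offset 0.27 and 0.23. The deviation of SCC replicate 1 from the other SCC libraries followed GC content more closely (r = 0.73, rho = 0.88). ITGB4, at 62.9% GC, deviated by 0.52 in SCC replicate 1. With the GC offset, ITGB4 was called together with ITGA3, LAMA4 and ITGAV, and over all genes 548 were called higher and 295 lower, compared with 268 and 60 without it.

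**Figure D5:**
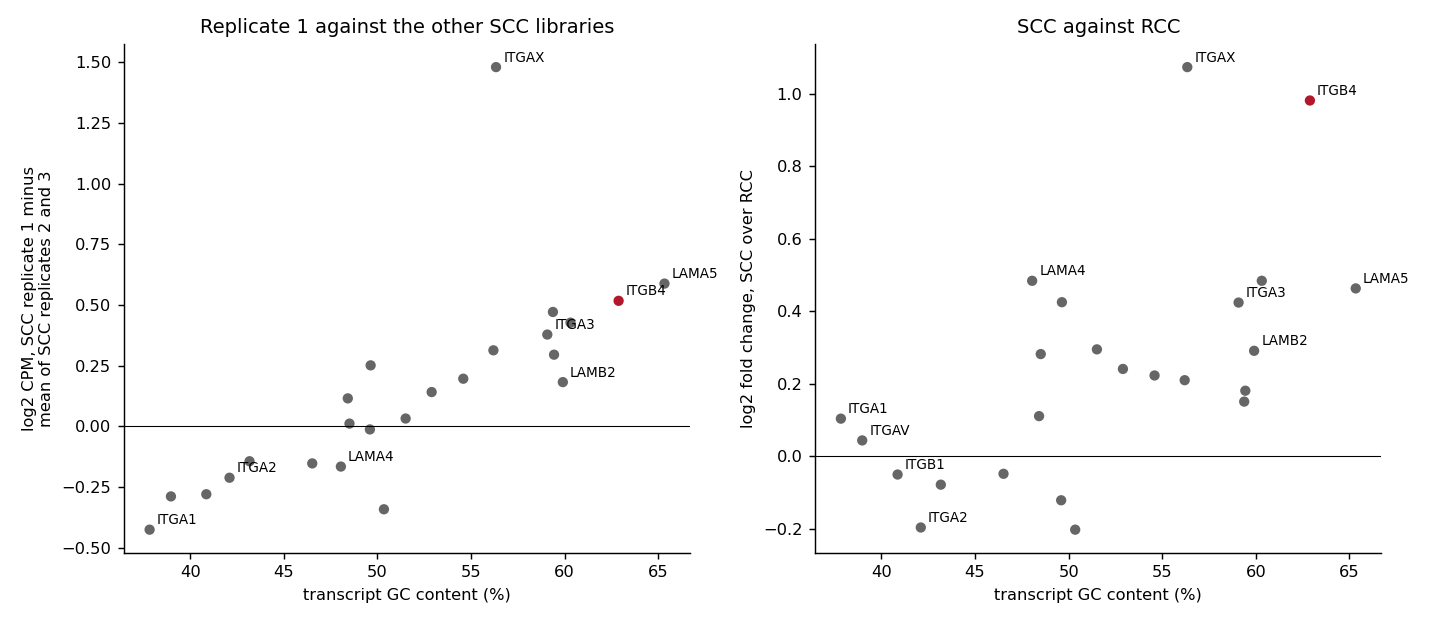
GC content of transcripts in percent (horizontal axes) for the 24 tested genes, against the log2 CPM of SCC replicate 1 minus the mean of SCC replicates 2 and 3 (left) and the log2 fold change of SCC over RCC (right). ITGB4 is red, and GC-rich chains such as LAMA5 and ITGB4 are high in SCC replicate 1.

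Genes that work beside integrins were examined in 5 lists. The adhesion plaque list holds talins, kindlins, FAK and other cytoplasmic proteins of focal adhesions. Of its 48 genes, 45 were tested and 0 were called in either direction by edgeR or DESeq2, and an unadjusted p under 0.05 was found for 10 higher and 2 lower, against 11.4% and 8.27% of all tested genes. The smallest p belonged to TNS3, a tensin that binds beta chain tails, at 250, 214 and 226 CPM in SCC and 200, 192 and 194 in RCC (log2 fold change 0.24, edgeR adjusted p = 0.119). TNS3 was called without SCC replicate 1 (0.18, adjusted p = 0.0212) and with no other library left out (adjusted p up to 0.351). Without SCC replicate 1 the list had 1 gene called higher and 1 lower, and without SCC replicate 2 it had 2 higher. Over all tested genes, 3.93% and 3.57% were called higher in these fits, and the range called lower is given with the processing results below. The median of the list was 0.16, and 0.02 without SCC replicate 1.

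The list of hemidesmosome components and other laminin receptors had 19 genes, all tested, of which 2 were called higher and 0 lower, against 1.69% and 0.378% of all tested genes. BCAM, a laminin alpha5 receptor of the immunoglobulin family, was at 55.6, 38.6 and 41.1 CPM in SCC and 27.0, 30.4 and 30.5 in RCC (log2 fold change 0.63, edgeR adjusted p = 0.0366). SLC3A2, the CD98 heavy chain that binds beta1 and beta3 integrins, was at 306, 264 and 274 CPM in SCC and 220, 229 and 225 in RCC (log2 fold change 0.32, edgeR adjusted p = 0.0447). In both genes every SCC library was above RCC. BCAM was no longer called without RCC replicate 1, 2 or 3 (adjusted p up to 0.195), nor SLC3A2 without SCC replicate 3 or RCC replicate 1, 2 or 3 (up to 0.225). The list had 7 calls without SCC replicate 1 (3.93% of all genes then) and 3 without SCC replicate 2 (3.57%). It had 1 call without SCC replicate 3 and 0 with any single RCC library left out. Calls over all tested genes also differed between these fits, and their range is given with the processing results below. The median of the list was 0.18, and 0.13 without SCC replicate 1. PLEC, which encodes plectin and ties beta4 to keratin filaments, had a log2 fold change of 0.37 (edgeR adjusted p = 0.248). Its groups overlapped, at 3867, 2243 and 2507 CPM in SCC and 2091, 2119 and 2465 in RCC, with SCC replicate 1 the highest. COL17A1, the hemidesmosomal collagen, had a log2 fold change of 0.27 (edgeR adjusted p = 0.332).

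The basement membrane partner list had 21 genes, of which 11 were tested and 0 called by edgeR, with an unadjusted p under 0.05 for 6 higher and 0 lower (11.4% and 8.27% of all tested genes), and 3 called higher by DESeq2 (3.02%). NID2, which encodes nidogen-2, a linker of laminin to type IV collagen, had the smallest p at 1.08, 1.38 and 1.14 CPM in SCC and 0.391, 0.478 and 0.280 in RCC. All SCC libraries were above RCC, at a log2 fold change of 1.61 ± 0.37 (standard error) and an edgeR adjusted p of 0.0501. NID2 had few counts, 29, 27 and 24 in SCC and 9, 10 and 5 in RCC. It passed the count filter through the SCC libraries, where it is high, which limits what its p and fold change can show. It was called without SCC replicate 1 (1.69, adjusted p = 0.0405) and with no other library left out (adjusted p up to 0.211). The list had 4 calls without SCC replicate 1 (3.93% of all genes then), or 3 without SCC replicate 2 (3.57%). The median of the list was 0.34, and 0.21 without SCC replicate 1.

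The list of other matrix and growth factor ligands of integrins held the most calls, 5 of 20 tested among 35 genes, all higher, against 1.69% of all tested genes. The list median was 0.24, and 0.15 without SCC replicate 1. FN1, which encodes fibronectin, was at 699, 648 and 681 CPM in SCC and 497, 469 and 481 in RCC. The groups were well apart, at a log2 fold change of 0.49 ± 0.06 (standard error) and an edgeR adjusted p of 0.00167. The type VI collagen chains COL6A2 (log2 fold change 0.80, edgeR adjusted p = 0.00513) and COL6A1 (0.53, 0.0161) were higher too, as were MFGE8, an alpha-v ligand (0.47, 0.012), and TNXB, a tenascin (0.97, 0.035). Every SCC library was above RCC in each of these genes, with SCC replicate 1 the highest. GC content was 65.3% for COL6A2, 63.6% for COL6A1, 57.5% for MFGE8 and 64.8% for TNXB. With single libraries left out, the log2 fold change was 0.63 to 0.87 for COL6A2 and 0.41 to 0.60 for COL6A1. It was 0.39 to 0.50 for MFGE8 and 0.71 to 1.08 for TNXB. FN1 and COL6A2 were called with any library left out. COL6A1, MFGE8 and TNXB were not called without RCC replicate 1, 2 or 3 (adjusted p up to 0.113, 0.108 and 0.167), which left 2 calls each time. Calls over all tested genes also differed between the fits with single libraries left out, over the range given below. Without SCC replicate 1 there were 7 calls, where 3.93% of all tested genes were called higher. TNXB has a near-identical partial copy, TNXA, so its counts are uncertain.

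The counter-receptors of leukocyte integrins were 12 genes, 6 of them tested, with 1 called higher (1.69% of all tested genes), 0 lower and a median of 0.14. ICAM1, the ligand of beta2 integrins, was at 7.12, 5.57 and 7.11 CPM in SCC and 2.57, 2.25 and 2.13 in RCC. Every SCC library was far above the RCC libraries, at a log2 fold change of 1.51 ± 0.18 (standard error) and an edgeR adjusted p of 0.00109. It was called with any of the 6 libraries left out.

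The series title names AP-1, a family of transcription factors that bind the motif TGANTCA, so the windows around transcription starts were searched for it on both strands. RefSeq windows (GRCh38.p14) of 300 bases, from 250 before the start to 50 from it on, matched 26 of the 37 genes by symbol, with 33 windows in all. ITGA3, ITGA7, ITGA9, ITGAD, ITGAL, ITGAX, ITGB2, ITGB3, ITGB4, LAMA1 and LAMC3 had no window. The motif was in 3 of the 33 windows (9.09%) and in 2707 of all 35116 windows (7.71%), a similar share. The 3 windows belong to LAMB3 (1 of its 3 windows), ITGA5 and LAMA3, and their matches are shown so that the motif and its surroundings can be compared, with the motif in capitals and 11 bases on either side.
LAMB3 (chr1:209651424-209651452, minus strand, motif from base -67 of the start): gtcagccactcTGACTCAttcactttggg
ITGA5 (chr12:54419255-54419283, minus strand, motif from base -6): cctccccgcgtTGAGTCAttcgcctctgg
LAMA3, first match (chr18:23872884-23872912, plus strand, motif from base -125): ctggcacaggcTGACTCAtgtgtgaagtt
LAMA3, second match (chr18:23872940-23872968, plus strand, motif from base -69): ccttcctcaccTGAGTCAggcaggcccgg
None of the 3 genes passed the threshold in the comparison above. A match describes these letters in these windows and is no measured binding site.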

How the data were processed

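All 6 libraries were analysed. The deposited table held whole-number counts per gene, and the deposited FPKM table, made by the authors, held the same counts per gene length and per library constant, 0.984 to 1.02 times the library total. The submitters' processing notes name HISAT2 2.0.5 and featureCounts 1.5.0-p3. Genome build, filters and use of strand were not given in the sources used here, so overlapping genes are uncertain. All 58735 IDs and positions matched GENCODE 29 (GRCh38), used for coordinates and transcript GC content.

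Counts were filtered with filterByExpr (minimum count 10, by group), TMM-scaled and fitted on group alone with edgeR 4.0.16 in R 4.3.3 (glmQLFit, two-sided glmQLFTest, Benjamini-Hochberg). Standard errors were derived from the fold change and its F statistic. DESeq2 1.42.0, limma 3.58.1 on log2(FPKM + 1) or log2(FPKM + 0.1), other scalings and filters, a replicate block, a GC offset (lowess span 0.3) and leaving out each library were alternatives. Scripts were tested on simulated data. No 2 libraries were identical. Chi-square per degree of freedom was 28.5 and 21.4 for SCC replicate 1 with SCC replicates 2 and 3. It was 3.28 to 4.24 for the remaining pairs within groups.

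The genes and lists were chosen with earlier results of these data known. Of the 38 genes, 1 is not reported here and enters no count over the 37 or the 24 tested. Values per library are given for called members, the most abundant of each role, ITGB1, ITGB4, LAMA3 and LAMB3, and members whose call changed when 1 library was left out. From each list, called genes (at most 5) or else that with the smallest p are named. PLEC and COL17A1 were chosen after their values were seen.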

Additional observations from a re-analysis of the deposited data

How the results depend on the processing

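ITGB4 was called higher in 16 of 17 alternatives (log2 fold change 0.74 to 1.06), the exception being limma on log2(FPKM + 1) without a filter (adjusted p = 0.151). None of the integrin and laminin genes described was called lower in any alternative run. Those called higher numbered 5 with DESeq2, 2 with RLE scaling, 5 without a count filter, 3 with the replicate block, 4 with the GC offset, 5 with both, 0 with limma without a filter and 1 to 5 with single libraries left out. Deviations of same-numbered libraries from their group means were little correlated (-0.009, 0.025 and -0.079). With SCC replicate 1 standing apart, these values cannot settle whether the libraries were paired. Over all genes, the block gave 350 higher and 106 lower, DESeq2 480 and 170, no filter 995 and 315, the GC offset 548 and 295, and the block with it 701 and 545. The 3 limma fits gave 130, 117 and 48 higher and 36, 34 and 1 lower. With single libraries left out, 99 to 642 were higher, most without SCC replicate 1, and 8 to 343 lower.

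Adhesion plaque genes called higher were 4 without a filter, 1 with the GC offset, 2 with block and offset and 0 to 2 with libraries left out. Those lower were 1, 1 and 0 to 1 with the offset, block and offset, and libraries left out. Hemidesmosome and laminin receptor genes were 1 with upper-quartile scaling, 4 without a filter, 4 with the GC offset, 5 with block and offset, 0 in each limma fit and 0 to 7 with libraries left out. Basement membrane partners were 3 with DESeq2, 5 without a filter, 1 with the block, 3 with the offset, 3 with both and 0 to 4 with libraries left out. Matrix ligands were 8 without a filter, 8 with the offset, 8 with both, 3, 2 and 1 in the limma fits and 2 to 7 with libraries left out. Counter-receptors were 0 with limma without a filter.

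Directions turned for genes near 0. ITGA7 was -0.022 with the offset, -0.05 with block and offset and -0.02 to 0.377 with libraries left out. ITGB1 was 0.051 with the offset, 0.05 with both and -0.115 to 0.038 with libraries left out. ITGAV ranged from -0.028 to 0.135 and LAMA2 from -0.151 to 0.114 with libraries left out. ITGAV was 0.171 with the offset and 0.17 with both, and called in each. The 13 chains with too few counts for a test give no call at this depth. The cause of each change was not tested.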

Other observations

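Genes named for integrins or laminins that lie outside the rule gave no call with edgeR. The integrin cytoplasmic-tail binding protein genes ITGB1BP1 (log2 fold change -0.27, adjusted p = 0.124), ITGB1BP2 (-0.99, 0.136) and ITGB3BP (-0.31, 0.268) were lower in value in SCC, while ITGBL1, a secreted integrin-like protein gene, was at 0.20 (0.289). Among the antisense and divergent RNAs, ITGB2-AS1 (0.28, 0.59), LAMA5-AS1 (-0.24, 0.78), LAMC1-AS1 (0.10, 0.903), ITGB1-DT (-0.02, 0.981) and ITGA9-AS1 (0.16, 0.893) were tested, and ITGA6-AS1 and ITGB5-AS1 were not. ITGB2-AS1, LAMA5-AS1, ITGB1-DT, ITGA9-AS1 and ITGA6-AS1 share some exonic bases with their partner genes. Use of strand was not given, so reads in these shared bases cannot be told apart. No shared exonic bases were found for ITGB5-AS1 or LAMC1-AS1 with their partner genes.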
